A study of Homo sapiens with 12 samples.

Results

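The genes described here are 10 members of the aryl hydrocarbon receptor (AHR) pathway and of tryptophan catabolism, out of the 62696 genes counted in the series: AHR, ARNT, AHRR, CYP1A1, CYP1A2, CYP1B1, TIPARP, TDO2, IDO1 and KYNU. They were chosen by name, from an earlier look at the response to TWEAK and at the levels in these same 12 libraries. Their values in the groups are therefore given as a description, with standard errors and without tests of single members. Counts of members past a threshold stand only beside the share over all genes. RNA-seq covered a pair of cell lines of HER2 breast cancer, MDA-MB-453 and SKBR3, each as 3 replicates without and 3 with TWEAK. TWEAK is a cytokine of the TNF family that signals through the receptor Fn14. Cells had been starved in Opti-MEM for 8 h, and TWEAK was then given at 10 ng/ml for 48 h and renewed after 24 h. The same protocol text stands in the labels of the untreated samples, whose own handling it leaves unstated. Each line is 1 established culture, both received from the same outside laboratory, so what is seen in it cannot be told apart from what is particular to that culture. The study's methods call the replicates biological and state, for work on cell lines in general, that it was repeated independently on separate days. The labels do not repeat this for these libraries, and the standard errors and p-values measure the spread between these samples.

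AHR is a transcription factor of the bHLH-PAS family that waits in the cytoplasm with chaperones. On binding a ligand it enters the nucleus, pairs with ARNT and binds short DNA motifs next to genes such as CYP1A1. Several of its targets restrain it, among them the repressor AHRR and the ADP-ribosyltransferase TIPARP. Kynurenine and related products of tryptophan breakdown are among the endogenous ligands of AHR. TDO2 and IDO1 catalyse the first step of that breakdown, and KYNU cleaves kynurenine and 3-hydroxykynurenine further along the route to NAD.

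Total counts were 24842722 to 28647209 per SKBR3 library and 24773003 to 35208304 per MDA-MB-453 library. TWEAK replicate 2 stood apart from both other TWEAK replicates in SKBR3, with a chi-square per degree of freedom of 21.1 and 23.8. In MDA-MB-453 it stood apart from replicate 1 (10.2), whereas its value against replicate 3 (5.31) was within the 1.78 to 5.74 of other pairs within a group. Calls that rest on this replicate are also given without it. Of 9 markers of luminal HER2 breast cancer cells, all were above 3 counts in every MDA-MB-453 library and 8 in every SKBR3 library. The exception was CDH1, the gene of E-cadherin, with 1 to 7 counts in SKBR3. Summed levels of leukocyte markers stayed at or below 1.56 CPM (counts scaled to library size). NFKB2, RELB and BIRC3, targets of NF-κB used as a check of the treatment, rose with TWEAK in both lines, with log2 fold changes of 1.79, 1.44 and 3.42 in SKBR3 and of 1.67, 2.75 and 3.57 in MDA-MB-453. Levels below are CPM on 1 scale for all 12 libraries, fold changes are TWEAK against untreated within a line on the log2 scale, and ± is the SD of 3 replicates.

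CYP1A1 responded to TWEAK in opposite directions in the lines, being 3.97-fold lower in SKBR3 and 1.77-fold higher in MDA-MB-453. Its neighbour CYP1A2, at low counts, was lower with overlapping groups in SKBR3 and higher without overlap in MDA-MB-453. TDO2 was 1.92-fold higher with TWEAK in MDA-MB-453 and at the limit of detection in SKBR3, whereas KYNU was 1.51-fold higher in SKBR3 and under 1 CPM on average, with overlapping groups, in MDA-MB-453. AHR itself was 1.14-fold higher in SKBR3 and 1.20-fold higher in MDA-MB-453, and ARNT was within the spread of the replicates in both lines. In edgeR's filter on low counts, 8 of the 10 members could be tested in SKBR3 (all but TDO2 and IDO1) and 7 in MDA-MB-453 (all but AHRR, CYP1A2 and IDO1). At an adjusted p of at most 0.1, 2 members were higher and 2 lower in SKBR3, where 6.6% and 3.82% of all tested genes were. In MDA-MB-453 2 were higher and none lower, where 1.29% and 0.208% of all tested genes were. All 3 TWEAK replicates lay beyond all 3 untreated ones for 5 tested members in SKBR3, against 26.5% of all tested genes, and for 3 in MDA-MB-453, against 15.1%. The response differed between the lines at the same threshold for 2 members, against 3.37% of all genes. Untreated SKBR3 was higher than untreated MDA-MB-453 for 6 members and lower for 2, against 43.5% and 40.7% of all genes. Since the members were chosen with these contrasts known, nothing is read from these counts.

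**Figure D1:**
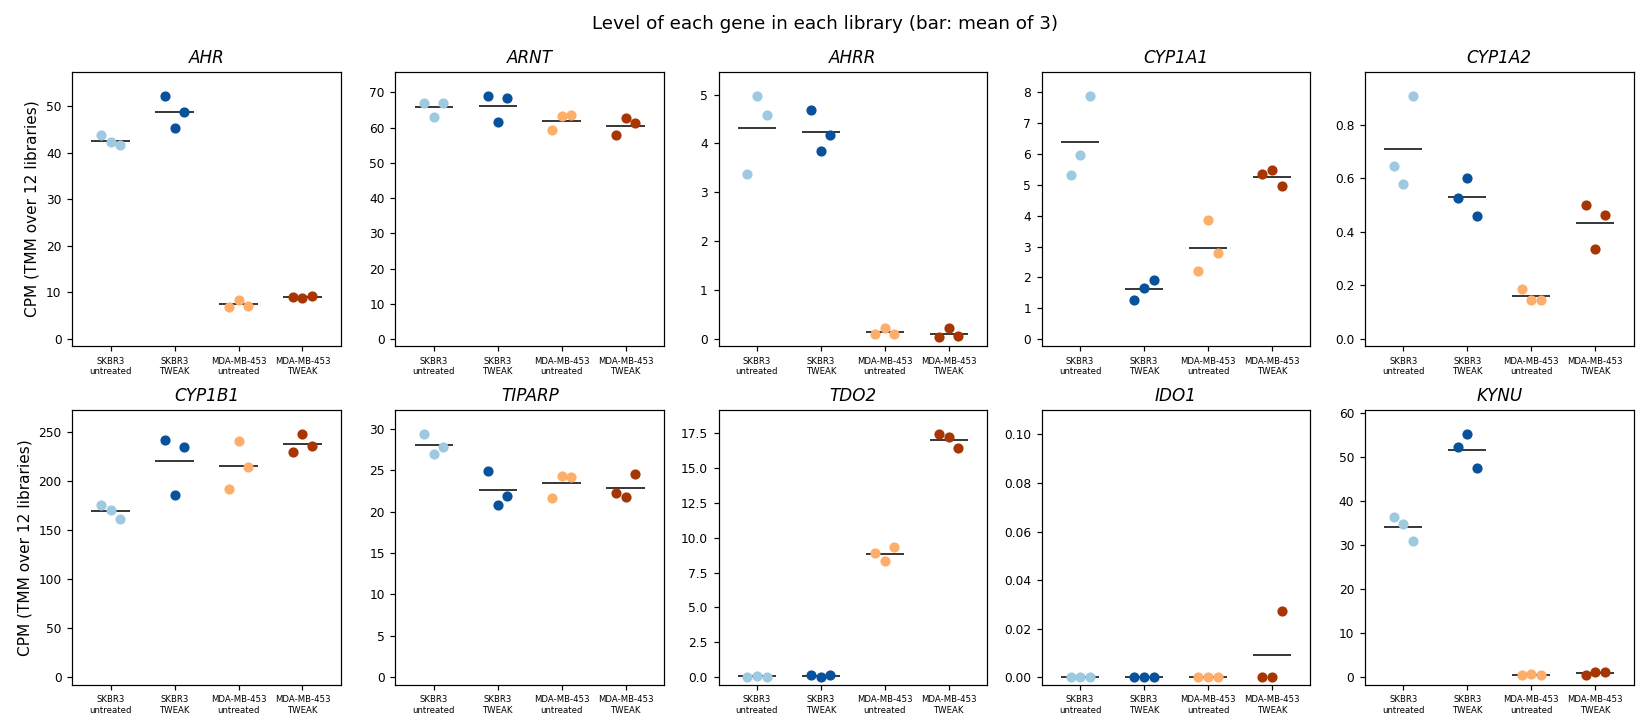
Level of each of the 10 genes in CPM (vertical axis, linear, its own range in each panel) in the 12 libraries, by line and treatment, with a bar at the mean of 3 replicates. CYP1A1 is lower with TWEAK in SKBR3 and higher in MDA-MB-453, TDO2 is seen in MDA-MB-453 and KYNU mostly in SKBR3.

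**Figure D2:**
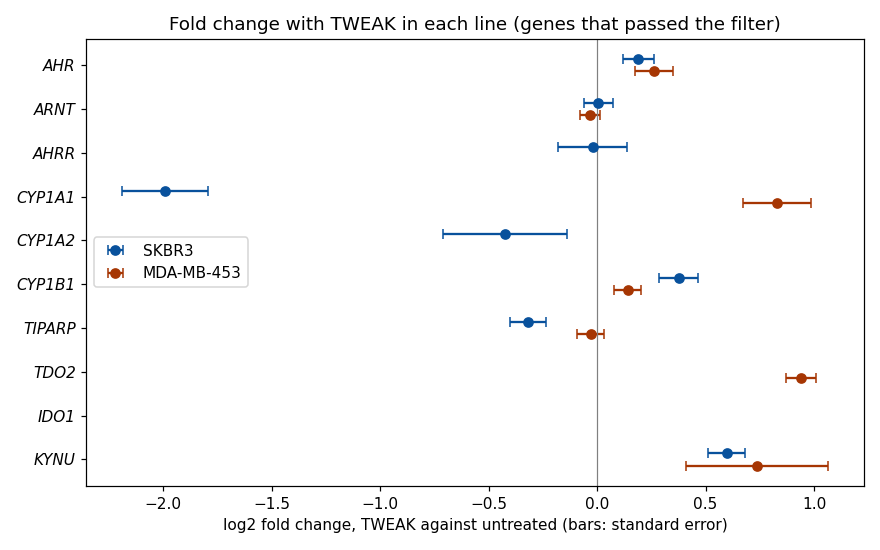
Log2 fold change of TWEAK against untreated (horizontal axis) with its standard error for the members that passed the filter in SKBR3 (blue) and MDA-MB-453 (brown). CYP1A1 lies at -1.99 in SKBR3 and at 0.83 in MDA-MB-453, and IDO1 passed the filter in neither line.

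AHR (ENSG00000106546) is the ligand-binding receptor, and its gene spans 16916359 to 17346152 of chromosome 7 (hg38). In SKBR3 it was at 43.7, 42.3 and 41.5 CPM in untreated and at 52.1, 45.3 and 48.6 CPM in TWEAK-treated replicates. In MDA-MB-453 it was at 6.95, 8.35 and 7.16 CPM without TWEAK and at 9.04, 8.70 and 9.17 CPM with it. The groups did not overlap in either line, and all 6 SKBR3 libraries lay far above all 6 of MDA-MB-453. With TWEAK, AHR differed by 0.19 (SE 0.070) in SKBR3 and by 0.26 (SE 0.087) in MDA-MB-453 on the log2 scale. Without TWEAK replicate 2 it was 0.24 and 0.28. Untreated SKBR3 held 5.68-fold more AHR than untreated MDA-MB-453, a log2 difference of 2.50 (SE 0.077). In bulk RNA, a lower level in each cell and fewer cells that express a gene cannot be told apart, and line and deposited table cannot either. The gene shares 29.5% of its exonic bases with ENSG00000283321 on the same strand, which had 0 counts in every library. How reads in shared bases were counted is not stated, so AHR may be undercounted.

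ARNT (ENSG00000143437; chromosome 1, 150809713 to 150876708) encodes the nuclear partner that AHR needs to bind DNA. Its levels were 67.0, 63.1 and 67.1 CPM in untreated and 69.0, 61.5 and 68.3 CPM in TWEAK-treated SKBR3. MDA-MB-453 held 59.3, 63.3 and 63.5 CPM without TWEAK and 57.8, 62.7 and 61.2 CPM with it. Neighbouring groups overlapped throughout the order of the 4 group means. Its log2 fold changes with TWEAK were 0.01 (SE 0.067) in SKBR3 and -0.03 (SE 0.046) in MDA-MB-453. Per kb of exonic length, ARNT was at 10.2 and AHR at 5.28 CPM in untreated SKBR3, whereas in untreated MDA-MB-453 ARNT was at 9.62 and AHR at 0.930. Thus AHR stood below ARNT per kb in both lines, and further below in MDA-MB-453. The bases that AHR shares with another gene may lower its value per kb in both lines.

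AHRR (ENSG00000063438; chromosome 5, 321714 to 438291) encodes a repressor that competes with AHR for ARNT. In SKBR3 it was at 3.38, 4.97 and 4.58 CPM in untreated and at 4.69, 3.85 and 4.18 CPM in TWEAK-treated replicates, with overlapping groups and a log2 fold change of -0.02 (SE 0.159). MDA-MB-453 libraries held 3, 6 and 3 counts without TWEAK and 1, 6 and 2 with it. AHRR was therefore 29.0-fold higher in untreated SKBR3 than in untreated MDA-MB-453, with a 95% counting interval of 16.4 to 56.7, and 42.1-fold higher with TWEAK (21.9 to 93.0). These intervals cover counting error only. Of its exonic bases, 58.7% are shared with the readthrough gene PDCD6-AHRR on the same strand, which had 0 to 5 counts, so the counts of both are uncertain.

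The AHR targets follow, with the promoters of the members whose levels carry the results below. The capitals mark the core of the AHR motif, GCGTG, or its reverse complement, CACGC. Each sequence runs 5′ to 3′ on the strand of the gene, from 250 bases before to 50 bases after the start, and comes from RefSeq on GRCh38.p14. The CYP1A1 sequence is chr15:74725479-74725778 on the minus strand, and that of CYP1A2 is chr15:74748595-74748894 on the plus strand. TDO2 is given from chr4:155903446-155903745 and KYNU from chr2:142877414-142877713, both on the plus strand.
CYP1A1: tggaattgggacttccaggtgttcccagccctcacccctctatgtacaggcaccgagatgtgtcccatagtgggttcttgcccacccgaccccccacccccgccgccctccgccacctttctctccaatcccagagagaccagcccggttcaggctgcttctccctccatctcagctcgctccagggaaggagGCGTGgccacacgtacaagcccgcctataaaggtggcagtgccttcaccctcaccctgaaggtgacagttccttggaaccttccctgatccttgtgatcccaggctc
CYP1A2: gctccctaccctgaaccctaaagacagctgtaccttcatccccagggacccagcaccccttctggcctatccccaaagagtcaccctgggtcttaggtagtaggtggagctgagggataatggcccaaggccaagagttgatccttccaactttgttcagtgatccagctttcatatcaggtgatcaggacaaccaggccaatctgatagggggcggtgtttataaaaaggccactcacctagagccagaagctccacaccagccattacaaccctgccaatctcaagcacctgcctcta
TDO2: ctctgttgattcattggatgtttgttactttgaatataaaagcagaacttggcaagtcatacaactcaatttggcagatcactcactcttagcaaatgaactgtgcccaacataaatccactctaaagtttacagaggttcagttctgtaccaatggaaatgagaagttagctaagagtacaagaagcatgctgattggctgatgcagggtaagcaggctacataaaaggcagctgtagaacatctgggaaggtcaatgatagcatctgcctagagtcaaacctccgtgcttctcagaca
KYNU: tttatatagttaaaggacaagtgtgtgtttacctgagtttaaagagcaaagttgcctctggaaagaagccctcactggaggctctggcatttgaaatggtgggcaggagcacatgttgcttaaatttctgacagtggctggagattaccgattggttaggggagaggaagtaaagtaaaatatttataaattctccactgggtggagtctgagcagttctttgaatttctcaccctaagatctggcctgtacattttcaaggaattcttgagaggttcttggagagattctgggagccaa
The core was found once in the CYP1A1 promoter, at position -57 from the start, and in none of the other 3 windows. Of the 35114 promoters of the same length in that table, 36.5% held the core on either strand. Promoters of 8 of the 10 members were listed, as 11 entries. The core was in 5 of these entries, from 4 members: AHR, AHRR, CYP1A1 and TIPARP. The 36.5% is a share of entries, so the 5 of 11 entries are what it is set beside, and nothing is read from them. A match describes the letters of a window and does not show that AHR binds there.

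CYP1A1 and CYP1A2 lie head to head on chromosome 15 with 23316 bases between their starts, a stretch that is known as a shared regulatory region of these genes. On either strand, it held the core GCGTG 34 times and the longer motif TNGCGTG, each match of which contains a core, 12 times. These are 1.46 and 0.515 matches per kb. Within 2000 bases of the start, CYP1A1 had 11 cores and 5 longer motifs, whereas CYP1A2 had 1 core and 0 longer motifs. The numbers that base composition alone would give were not computed, so no excess of motifs is read from these counts. The 300-base window with the most longer motifs spans chr15:74726344-74726643 of hg38, 816 to 1115 bases upstream of CYP1A1, and is printed because it held 3 of them. It is written on the strand of CYP1A1, with TNGCGTG or its reverse complement in capitals.
CYP1A1 upstream window: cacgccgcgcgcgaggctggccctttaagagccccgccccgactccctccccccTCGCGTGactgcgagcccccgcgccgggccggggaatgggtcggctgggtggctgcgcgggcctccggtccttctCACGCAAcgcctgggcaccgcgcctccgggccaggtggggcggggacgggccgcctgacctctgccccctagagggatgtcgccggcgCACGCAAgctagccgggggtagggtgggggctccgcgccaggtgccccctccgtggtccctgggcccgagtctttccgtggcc
Among promoters of the same length, 5.51% held the longer motif at least once. That share is no comparison for this window, which was picked for its number of motifs.

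**Figure D3:**
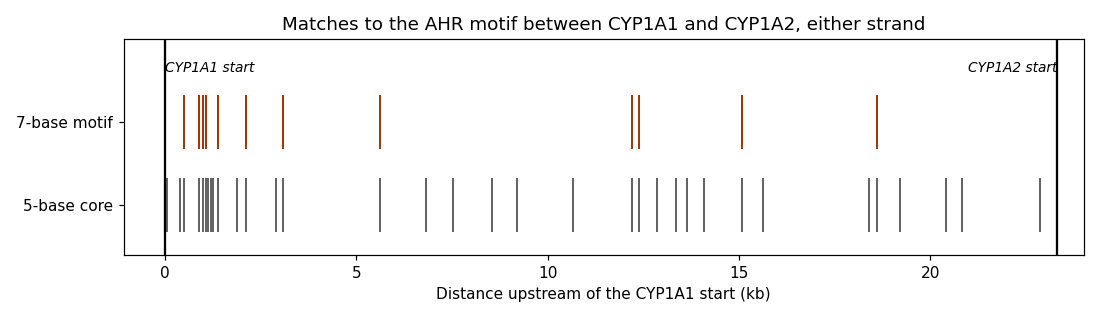
Positions of the AHR motif on either strand between the starts of CYP1A1 (left line) and CYP1A2 (right line), as distance upstream of CYP1A1 in kb, with the 5-base core in the lower and the 7-base motif in the upper row. The motifs are densest close to CYP1A1, where 5 of the 12 longer motifs lie within 2000 bases of the start. The part of base composition in this was not tested.

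CYP1A1 (ENSG00000140465; chromosome 15, 74719542 to 74725536) encodes the cytochrome P450 enzyme that is the classical target of AHR. Untreated SKBR3 held 148, 144 and 191 counts and TWEAK-treated SKBR3 31, 41 and 46, that is 5.32, 5.96 and 7.88 against 1.25, 1.64 and 1.92 CPM. In MDA-MB-453 the counts were 59, 106 and 76 without TWEAK and 139, 147 and 182 with it, or 2.19, 3.87 and 2.79 against 5.35, 5.49 and 4.97 CPM. Each TWEAK replicate was lower than each untreated one in SKBR3, and each was higher in MDA-MB-453. On the log2 scale CYP1A1 differed by -1.99 (SE 0.200) in SKBR3 against 0.83 (SE 0.157) in MDA-MB-453, so that the lines differed by 2.81 (SE 0.277). Leaving out any 1 library gave -2.13 to -1.81 in SKBR3 and 0.65 to 1.07 in MDA-MB-453. By mean level, untreated SKBR3 (6.39 ± 1.33 CPM) came first and TWEAK-treated MDA-MB-453 (5.27 ± 0.270 CPM) second, and these overlapped. Untreated MDA-MB-453 (2.95 ± 0.848 CPM) and TWEAK-treated SKBR3 (1.61 ± 0.335 CPM) followed, each apart from its neighbour. With TWEAK the order of the lines was thus the opposite of that without it.

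CYP1A2 (ENSG00000140505; chromosome 15, 74748845 to 74756607) encodes the related P450 enzyme known best from liver, and its counts were low. SKBR3 held 18, 14 and 22 counts without TWEAK and 13, 15 and 11 with it, and the groups overlapped at 0.711 ± 0.173 and 0.529 ± 0.0712 CPM. The log2 fold change was -0.42 (SE 0.286). MDA-MB-453 held 5, 4 and 4 counts without TWEAK and 13, 9 and 17 with it, or 0.160 ± 0.0228 against 0.433 ± 0.0863 CPM, without overlap. The gene was under the filter in the fit of that line. In the fit over 12 libraries, the difference between the lines' log2 fold changes was 1.84 (SE 0.463), in the same direction as for CYP1A1. Untreated SKBR3 held 4.45-fold more than untreated MDA-MB-453 (95% counting interval 2.39 to 8.88), and with TWEAK the ratio was 1.21 (0.759 to 1.94).

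CYP1B1 (ENSG00000138061; chromosome 2, 38066973 to 38109902) encodes the member of this enzyme family that is widely expressed outside the liver. It made up most of the family in every library, with 91.0% to 98.7% of the summed CPM per kb of CYP1A1, CYP1A2 and CYP1B1. CYP1A1 made up 5.13% to 7.97% of that sum in untreated and 0.919% to 1.56% in TWEAK-treated SKBR3. In MDA-MB-453 its share was 2.0% to 2.80% without TWEAK and 3.63% to 3.99% with it. The level of CYP1B1 was 174.9, 170.4 and 161.3 CPM in untreated and 241.3, 185.3 and 234.0 CPM in TWEAK-treated SKBR3. It was higher in each TWEAK replicate, least so in replicate 2. MDA-MB-453 held 191.8, 239.9 and 213.8 CPM without TWEAK and 229.5, 247.1 and 235.4 CPM with it, and these groups overlapped. The log2 fold change was 0.38 (SE 0.090) in SKBR3, 0.49 without TWEAK replicate 2, and 0.14 (SE 0.063) in MDA-MB-453. In SKBR3, CYP1B1 was thus higher with TWEAK while CYP1A1 was lower. CYP1B1 shares 11.3% of its exonic bases with CYP1B1-AS1 on the opposite strand, which had 66 to 113 counts in SKBR3 and 23 to 47 in MDA-MB-453, against at least 3910 of CYP1B1.

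TIPARP (ENSG00000163659; chromosome 3, 156673235 to 156706770), which encodes the ADP-ribosyltransferase that limits AHR activity, was at 29.3, 26.9 and 27.8 CPM in untreated and at 24.95, 20.8 and 21.9 CPM in TWEAK-treated SKBR3. Each TWEAK replicate was lower than each untreated one, with a log2 fold change of -0.32 (SE 0.083), or -0.26 without TWEAK replicate 2. In MDA-MB-453 it was at 21.7, 24.4 and 24.2 CPM without TWEAK and at 22.2, 21.8 and 24.6 CPM with it. Those groups overlapped, and the log2 fold change was -0.03 (SE 0.064). Among CYP1A1, CYP1A2, CYP1B1 and TIPARP, CYP1A1 and TIPARP were lower with TWEAK in SKBR3 without overlap of the groups, CYP1A2 was lower with overlap, and CYP1B1 was higher. In MDA-MB-453, CYP1A1 and CYP1A2 were higher without overlap, and the levels of CYP1B1 and TIPARP overlapped. The groups of AHRR, also a target, overlapped in both lines.

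TDO2 (ENSG00000151790; chromosome 4, 155854738 to 155920406) encodes tryptophan 2,3-dioxygenase, which opens the ring of tryptophan. MDA-MB-453 held 240, 228 and 254 counts without TWEAK and 452, 462 and 601 with it. These are 8.92, 8.31 and 9.33 against 17.4, 17.2 and 16.4 CPM, far apart and with little spread in each group. The log2 fold change was 0.94 (SE 0.069), with a range of 0.89 to 0.98 over all alternatives of the analysis. SKBR3 held 1, 2 and 1 counts without TWEAK and 4, 1 and 4 with it. Untreated MDA-MB-453 was 169-fold above untreated SKBR3, with a 95% counting interval of 65.6 to 621. Against the floor of 3 counts in each SKBR3 library this ratio was 74.6. With TWEAK the ratio was 139 (72.8 to 304). TDO2 is best known from hepatocytes, whose marker ALB was at 25 to 38 counts in MDA-MB-453 and 0 to 5 in SKBR3. Of the other hepatocyte markers, TTR had 0 or 1 counts and APOA1 0 to 5 in each library. The summed level of the 3 markers in MDA-MB-453 was 1.098 to 1.51 CPM without TWEAK and 1.01 to 1.12 CPM with it, and its part in the TDO2 values was not tested.

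IDO1 (ENSG00000131203; chromosome 8, 39902275 to 39928790) encodes indoleamine 2,3-dioxygenase, the interferon-inducible enzyme of the same step. It had 0 counts in 11 of the 12 libraries and 1 count in TWEAK replicate 3 of MDA-MB-453. A count of 0 allows up to 3 counts, which is 0.0818 to 0.1253 CPM at these depths, so expression below that level was not detectable. IDO2, its paralogue, had 1 count in all. Of the genes of the first step, TDO2 was thus the one detected, and in MDA-MB-453.

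KYNU (ENSG00000115919; chromosome 2, 142877657 to 143055833) encodes kynureninase. SKBR3 held 36.4, 34.7 and 30.8 CPM without TWEAK and 52.3, 55.1 and 47.4 CPM with it. Each TWEAK replicate was above each untreated one, and the log2 fold change was 0.60 (SE 0.085), or 0.55 without TWEAK replicate 2. MDA-MB-453 held 12, 18 and 15 counts without TWEAK and 12, 29 and 42 with it, or 0.551 ± 0.105 and 0.897 ± 0.378 CPM. Those groups overlapped, and the log2 fold change of 0.74 (SE 0.328) moved between 0.49 and 1.01 as single libraries were left out. Untreated SKBR3 was 61.1-fold above untreated MDA-MB-453, a log2 difference of 5.93 (SE 0.168). TDO2 and KYNU were therefore high in opposite lines, and each was higher with TWEAK in the line where it was high.

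The other enzymes of the kynurenine pathway place both members along the route. Of 10 such genes, 6 could be tested in SKBR3 and 5 in MDA-MB-453. KMO, which hydroxylates kynurenine, rose with TWEAK in SKBR3 from 12.1, 11.3 and 11.7 to 18.3, 16.3 and 16.7 CPM, with a log2 fold change of 0.54 (SE 0.083, edgeR adjusted p = 0.00167). It was the 1 gene of this list past the threshold there, against 6.6% of all tested genes that rose and 3.82% that fell. In MDA-MB-453 none passed in edgeR, where 1.29% of all tested genes were higher and 0.208% lower. None passed at an unadjusted p under 0.05 (0 genes) or in DESeq2 (0 genes) either, and KMO was at 72.2 ± 4.27 and 71.8 ± 2.25 CPM. Its responses differed between the lines by -0.56 (SE 0.093, edgeR adjusted p = 0.00184). KMO shares 28.4% of its exonic bases with OPN3 on the opposite strand, and whether strand was used in counting is not stated.

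Between the untreated lines, 5 of these 6 enzymes were higher and 1 lower in SKBR3, in a contrast where 43.5% and 40.7% of all genes were. KMO was lower in SKBR3 by 2.63 on the log2 scale (log2 difference -2.63, SE 0.067, edgeR adjusted p = 2.75e-16). AFMID, the formamidase of the second step, was higher by 2.21 (SE 0.071, edgeR adjusted p = 5.82e-15). QPRT, which makes the NAD precursor nicotinate mononucleotide from quinolinate, was higher by 4.61 (SE 0.078, edgeR adjusted p = 1.2e-18), at 249 ± 14.1 against 10.2 ± 0.406 CPM. AADAT, which turns kynurenine into kynurenic acid, had 62 to 98 counts in untreated SKBR3 and 0 in all MDA-MB-453 libraries, so it was at least 26.5-fold higher in SKBR3. HAAO, which makes the precursor of quinolinate from 3-hydroxyanthranilate, had 2 to 10 counts in SKBR3 and 0 or 1 in MDA-MB-453. Per kb of exonic length, untreated MDA-MB-453 thus held TDO2 at 1.68, KMO at 12.1, KYNU at 0.0316 and QPRT at 2.77 CPM. Untreated SKBR3 held TDO2 at 0.0101, KMO at 1.96, KYNU at 1.95 and QPRT at 67.5 CPM. The annotated exonic length of KYNU is 17442 bases over all its transcripts, more than that of the other members, which lowers its value per kb.

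**Figure D4:**
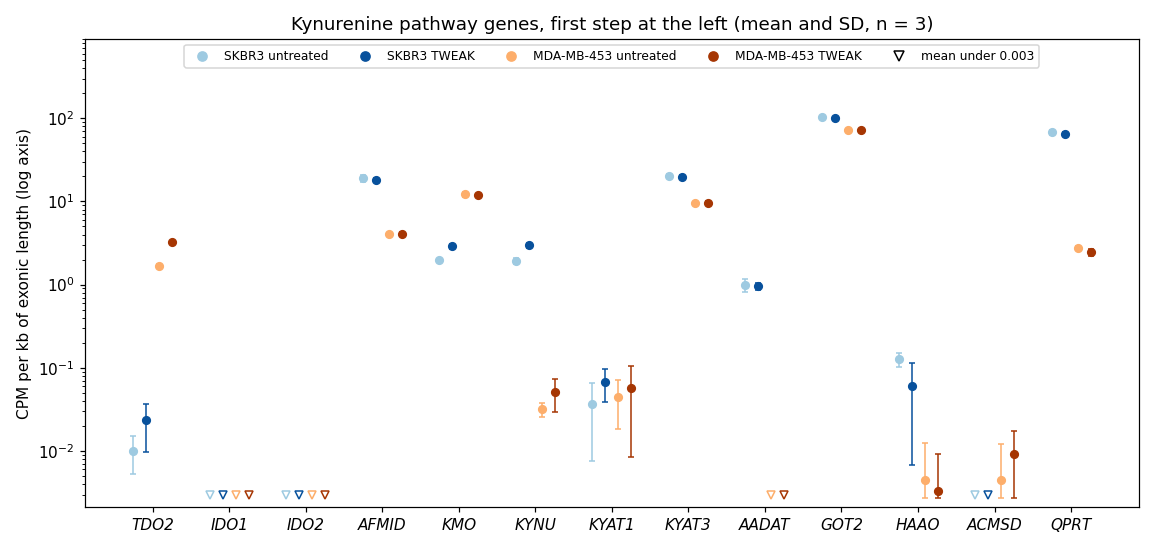
Mean level per kb of exonic length (vertical log axis, CPM per kb) of 13 kynurenine pathway genes from the first step at the left, by line and treatment, with the SD of 3 replicates (cut where it would pass below the axis). Open triangles mark means under 0.003. TDO2 and KMO are higher in MDA-MB-453, and KYNU, AFMID, AADAT and QPRT in SKBR3.

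Genes of tryptophan uptake and of other uses of tryptophan were measured beside them. Of 12 genes, 9 were tested in SKBR3, where 1 rose and 1 fell, against 6.6% and 3.82% of all tested genes. In MDA-MB-453 6 were tested and none passed in edgeR (1 at an unadjusted p under 0.05, 0 in DESeq2), against 1.29% higher and 0.208% lower of all tested genes. IL4I1, a secreted oxidase of aromatic amino acids whose products from tryptophan are known to activate AHR, rose in SKBR3. Its counts were 19, 6 and 13 without TWEAK and 88, 127 and 72 with it, a log2 fold change of 2.95 (SE 0.313, edgeR adjusted p = 0.000129). In MDA-MB-453 it had 5 to 13 counts in each library, and the lines differed in response by -3.30 (SE 0.610, edgeR adjusted p = 0.00468). IL4I1 shares 13.5% of its exonic bases with NUP62 on the same strand. SLC7A5, the main subunit of the LAT1 transporter that carries tryptophan and kynurenine, fell in SKBR3 from 769.8 ± 19.3 to 511 ± 24.2 CPM. Its log2 fold change was -0.60 (SE 0.058, edgeR adjusted p = 6.3e-05). MDA-MB-453 held it at 126 ± 4.38 and 122 ± 4.08 CPM, and the responses differed by 0.54 (SE 0.069, edgeR adjusted p = 0.000154). Further calls appeared without TWEAK replicate 2. In SKBR3 DDC, which decarboxylates aromatic amino acids, fell by 0.91 (edgeR adjusted p = 0.0441) and SLC3A2, the partner chain of LAT1, fell by 0.13 (edgeR adjusted p = 0.0592). In MDA-MB-453 the transporter SLC7A8 fell by 0.18 (edgeR adjusted p = 0.0035). With all libraries the log2 fold changes were -0.55 for DDC, -0.08 for SLC3A2 and -0.13 for SLC7A8.

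Interferon gamma is the known inducer of IDO1, and 7 genes of that input were examined. IFNG itself had 2 counts in 1 untreated SKBR3 library and 0 elsewhere. In SKBR3 5 of 6 tested genes rose and none fell, where 6.6% and 3.82% of all tested genes did: IFNGR1, IFNGR2, JAK1, IRF1 and SOCS1. The list was drawn up with earlier results of these data known, so nothing is read from its count or median against all genes. The median log2 fold change of the 6 was 0.80 in this line and 0.05 in MDA-MB-453, where 1 rose, against 1.29% of all tested genes. IFNGR1, a chain of the interferon gamma receptor, rose from 34.1 ± 0.231 to 68.6 ± 2.39 CPM (log2 fold change 1.002, SE 0.064, edgeR adjusted p = 2.46e-06). In MDA-MB-453 it passed the threshold once TWEAK replicate 2 was left out, at 0.15 (edgeR adjusted p = 0.0985). Its partner chain IFNGR2 rose by 0.70 (SE 0.086, edgeR adjusted p = 0.000359) and the kinase JAK1 by 0.40 (SE 0.077, edgeR adjusted p = 0.00789). SOCS1, an inhibitor of this signalling, rose by 0.90 (SE 0.115, edgeR adjusted p = 0.000492). IRF1, a transcription factor that binds the IDO1 promoter, rose in both lines, by 1.09 (SE 0.10, edgeR adjusted p = 4.33e-05) in SKBR3 and by 1.22 (SE 0.10, edgeR adjusted p = 8.69e-06) in MDA-MB-453. IDO1 stayed at 0 or 1 counts in the same libraries. IRF1 shares 22.9% of its exonic bases with IRF1-AS1 and IFNGR2 15% with TMEM50B, both on the opposite strand.

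**Figure D5:**
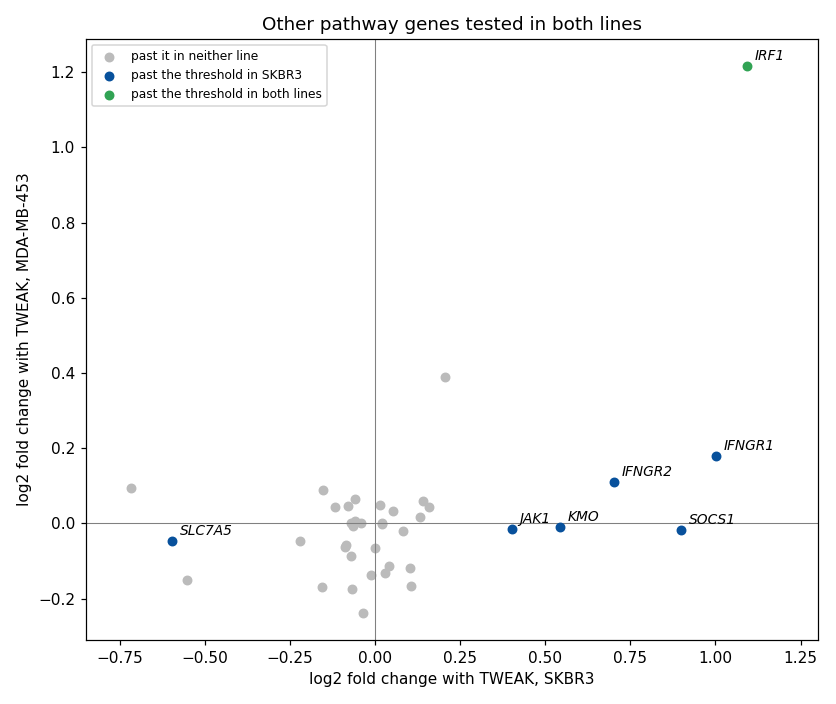
Log2 fold change with TWEAK in SKBR3 (horizontal) and MDA-MB-453 (vertical) for the 39 genes of the other pathway lists tested in both lines. Colours show where a gene passed an adjusted p of 0.1. IRF1 passed it in both lines and 6 further genes in SKBR3, and IL4I1 is not shown because it was tested only in SKBR3.

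Of 10 genes of the AHR complex and its coactivators, none passed the threshold. In SKBR3 0 of 10 were called by edgeR, 0 at an unadjusted p under 0.05 and 0 by DESeq2. In MDA-MB-453 0 of 9 were called by edgeR, 2 at an unadjusted p under 0.05 and 0 by DESeq2. These counts rested on TWEAK replicate 2. Without it, NCOA3 (0.18, against 0.04 with all libraries) and EP300 (0.15, against -0.04) rose in SKBR3, so that the sign for EP300 turned on this 1 library. In MDA-MB-453 HSP90AA1 (0.09), a chaperone that holds AHR in the cytoplasm, then rose and NCOA1 (-0.19), NCOA2 (-0.13), NCOA3 (-0.18), NRIP1 (-0.12) and EP300 (-0.37) fell, all at an adjusted p of at most 0.1 in edgeR. With all libraries the values were 0.06 for HSP90AA1, -0.17 for NCOA1, -0.09 for NCOA2, -0.11 for NCOA3, -0.06 for NRIP1 and -0.24 for EP300. In the fits without TWEAK replicate 2, 9.93% of all tested genes were higher and 7.45% lower in SKBR3. The shares in MDA-MB-453 were 6.59% and 7.22%.

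Of 12 other reported targets of AHR, SKBR3 allowed a test of 5 and MDA-MB-453 of 4, and none passed in edgeR or DESeq2. At an unadjusted p under 0.05 in edgeR there were 4 in SKBR3 and 1 in MDA-MB-453. The share of all genes under that p was not computed, so nothing is read from those counts. STC2, a secreted glycoprotein, had 27, 36 and 32 counts in untreated and 16, 19 and 21 in TWEAK-treated SKBR3, without overlap (log2 fold change -0.72, SE 0.249, edgeR adjusted p = 0.128). ABCG2, an efflux transporter, had 23, 14 and 14 against 8, 9 and 13 counts there, also without overlap (-0.71, SE 0.317, edgeR adjusted p = 0.247). NQO1, a quinone reductase shared with the NRF2 pathway, was at 452.9, 442.1 and 464.7 CPM in untreated and at 403.3, 443.1 and 380.7 CPM in TWEAK-treated SKBR3. The log2 fold change was -0.15 (SE 0.067, edgeR adjusted p = 0.238), and without TWEAK replicate 2 it was -0.21 with an adjusted p of 0.00114. The corresponding value of MDA-MB-453 was 0.09 (SE 0.036, edgeR adjusted p = 0.392), and 0.11 with an adjusted p of 0.0331 without that replicate. NFE2L2, which encodes NRF2, had a log2 fold change of 0.16 in SKBR3 (edgeR adjusted p = 0.165), and of 0.17 with an adjusted p of 0.038 without TWEAK replicate 2. HES1, the remaining target tested in SKBR3, had a log2 fold change of 0.14 there (SE 0.081, edgeR adjusted p = 0.38), with overlapping groups. ALDH3A1, UGT1A1, UGT1A6, CYP2S1, SERPINB2, EREG and PTGS2 were too low to be tested in either line. Of these, UGT1A6 had 1, 1 and 0 counts without and 6, 2 and 5 with TWEAK in SKBR3, and 5, 2 and 6 against 12, 11 and 11 in MDA-MB-453, without overlap in either line. Its exons overlap those of other UGT1A genes on the same strand, so these counts are uncertain. Over all 66 genes of the 7 lists of other pathway genes, 7 rose and 1 fell of 46 tested in SKBR3, where 6.6% and 3.82% of all tested genes did, and 1 rose and none fell of 39 tested in MDA-MB-453, where 1.29% and 0.208% did. The median log2 fold change of the lists was -0.01 in both lines, against medians of -0.01 (SKBR3) and 0.0016 (MDA-MB-453) over all tested genes. Without TWEAK replicate 2, 12 rose and 5 fell of 47 in SKBR3, and 4 rose and 7 fell of 41 in MDA-MB-453. Calls over all genes were also more frequent in those fits, with 9.93% higher and 7.45% lower in SKBR3 and 6.59% higher and 7.22% lower in MDA-MB-453.

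Genes whose level followed a member most closely were taken from the 6 SKBR3 libraries, among 13377 genes of at least 1 CPM. Closest to CYP1A1 were ST6GALNAC4 (Pearson's r of log2 CPM 0.996), HYKK (0.994) and HPDL (0.994), and over the 6 MDA-MB-453 libraries HYKK had an r of -0.653 with CYP1A1. ST6GALNAC4 and HPDL were at group means of at most 0.111 CPM in MDA-MB-453, too low for such a value. Closest to KYNU were MITD1 (0.992), PTP4A2 (0.991) and CPA4 (0.990), with 0.180, -0.521 and 0.0321 in MDA-MB-453. KYNU itself had 12 to 42 counts in each MDA-MB-453 library, so its values of r there are uncertain. Closest to AHR were CFLAR (0.992), PPP3CB-AS1 (0.989) and TBL1XR1 (0.987), with -0.113, -0.154 and 0.0106. These are descriptions over libraries that share the same treatment groups.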

How the data were processed

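RNA-seq of polyA RNA from SKBR3 and MDA-MB-453 gave 12 libraries, 3 per group. The authors deposited raw counts per gene for versioned Ensembl identifiers, which per the labels were made with Trimmomatic, STAR on hg38 and featureCounts, and the counts carry no normalisation. Tool versions, the strand setting, the treatment of multimapping reads and the annotation release are not given in the sources used here. The labels name a DNA library kit, whereas the methods name one for directional RNA. Symbols, positions and exonic lengths were taken from GENCODE release 44.

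Counts were tested within each line with edgeR 4.0.16 in R 4.3.3 (filterByExpr, TMM, two-sided quasi-likelihood test, Benjamini-Hochberg adjustment over all tested genes, threshold 0.1), which kept 15661 genes for SKBR3 and 14929 for MDA-MB-453. A fit of 12 libraries (17201 genes) gave the difference between the lines' responses and the contrast of untreated lines. The tests were tried on simulated counts. Changes of 1 on the log2 scale were recovered at 86.2% in SKBR3 and 90.8% in MDA-MB-453. For the difference between the lines, 69.6% were recovered. False calls made up 11.1% of calls within each line and 9.8% for the difference, at the threshold of 0.1. A standard error is the log2 fold change divided by the root of the F statistic. CPM use TMM factors of 12 libraries. The floor is 3 counts, and counting intervals are 95% exact. Every member is described. Some genes of the lists are not reported here and are left out of their counts. Other pathway genes are named where they passed the threshold (at most 6 per list and line) and the 3 genes most correlated with CYP1A1, KYNU and AHR are named. Genes named outside that rule were chosen after their values were seen. For counts at an unadjusted p under 0.05 no share over all genes was computed, and nothing is read from them. The members, lists and tests were chosen with earlier results of these data known. Alternatives were DESeq2 size factors, DESeq2 1.42.0, no filter, at least 10 counts in every library, a block for the replicate number, 12 libraries in 1 fit, a threshold of 0.05, and each library left out.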

Additional observations from a re-analysis of the deposited data

Results flagged for a closer look

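CYP1A1 moved in opposite directions in the lines: each TWEAK replicate was below each untreated one in SKBR3 and above each in MDA-MB-453, and the log2 fold changes differed by 2.81. These values are given as a description, since CYP1A1 was chosen with these responses known.

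For 7 of 46 tested genes of the other pathway lists, against 3.37% of all tested genes, the response to TWEAK differed between the lines in edgeR's test of the interaction (MDA-MB-453 minus SKBR3, log2 scale, 12 libraries). The lists were drawn up with earlier results of these data known, so nothing is read from that share. The difference was -0.56 for KMO (adjusted p = 0.00184), -3.30 for IL4I1 (adjusted p = 0.00468) and 0.54 for SLC7A5 (adjusted p = 0.000154), each with a response in SKBR3 and values close to untreated in MDA-MB-453. Among genes of the interferon gamma input it was -0.83 for IFNGR1 (adjusted p = 1.36e-05), -0.60 for IFNGR2 (adjusted p = 0.00897), -0.42 for JAK1 (adjusted p = 0.0168) and -0.92 for SOCS1 (adjusted p = 0.0398). The SOCS1 difference was past the threshold in edgeR with all libraries but not without MDA-MB-453 untreated replicate 2 (adjusted p = 0.128), untreated replicate 3 (0.135) or TWEAK replicate 1 (0.109).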

How the results depend on the processing

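Leaving out single libraries moved some log2 fold changes of members by more than their standard error. CYP1A1 in MDA-MB-453 went from 0.83 (SE 0.157) to 1.07, and CYP1B1 in SKBR3 from 0.38 (SE 0.090) to 0.49. Of the 180 values that the alternatives gave for the 15 log2 fold changes of members, 172 kept their sign. The exceptions were ARNT and AHRR in SKBR3 and TIPARP in MDA-MB-453, whose changes were near 0. Of 225 values for the genes of the other lists called with all libraries (8 in SKBR3, 1 in MDA-MB-453 and 7 for the difference between the lines), 222 stayed past the threshold with the same sign, and the other 3 are those of SOCS1 given above. Single genes of the contrast of untreated lines were not recomputed.

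Counts of genes moved more, and apart from the alternatives' own construction the cause was not tested. In SKBR3, 1633 genes were called, 2575 with all 12 libraries in 1 fit, and 926 (without untreated replicate 2) to 2780 (without TWEAK replicate 2) with 1 library left out. Its genes of the other lists numbered 8, and 8 to 17 (without TWEAK replicate 2) with 1 library left out. In MDA-MB-453, 223 genes were called, 480 with no filter on low counts, 144 with all 12 libraries in 1 fit, and 131 (without untreated replicate 2) to 2101 (without TWEAK replicate 2) with 1 library left out. Its genes of the other lists numbered 1, 3 with no filter and 1 to 11 (without TWEAK replicate 2) with 1 library left out. The difference between the lines was called for 579 genes, 394 (without MDA-MB-453 TWEAK replicate 3) to 1150 (without SKBR3 TWEAK replicate 2) with 1 library left out, and for 7 genes of the lists, 6 to 14 (the latter without the same SKBR3 replicate).

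The replicate numbers were not found to pair the samples: deviations of same-numbered untreated and TWEAK replicates correlated at -0.111 to 0.081 in SKBR3 and 0.001 to 0.051 in MDA-MB-453. With the replicate block, MDA-MB-453 gave 894 genes and 8 genes of the lists, and the other counts stayed within 1.5 times. Depth limits AHRR, CYP1A2 and KYNU in MDA-MB-453, TDO2 in SKBR3 and IDO1 in both lines.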

Other observations

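Other routes to NAD differed between the untreated lines in both directions. Of 9 genes of NAD synthesis outside the kynurenine pathway, 7 were tested, and 4 were higher and 3 lower in untreated SKBR3 than in untreated MDA-MB-453 in edgeR, where 43.5% and 40.7% of all tested genes were. NAMPT, the rate-limiting enzyme of NAD salvage from nicotinamide, was at 152.6 CPM in untreated SKBR3 and at 29.97 CPM in untreated MDA-MB-453 (log2 difference 2.35, SE 0.069, edgeR adjusted p = 1.62e-15). NAPRT, which salvages nicotinic acid, was at 181 and 31.2 CPM (log2 difference 2.54, SE 0.088, edgeR adjusted p = 1.73e-14). NMNAT1 and NMNAT2, which form NAD from its mononucleotide, were also higher in SKBR3, by 1.76 (SE 0.099) and 3.29 (SE 0.496) on the log2 scale. NMNAT2 had 21, 22 and 15 counts in untreated SKBR3 and 0, 2 and 4 in untreated MDA-MB-453, so its difference is uncertain. NMNAT3 (log2 difference -0.32), the NAD synthetase gene NADSYN1 (-0.47) and the riboside kinase gene NMRK1 (-0.54) were lower. With TWEAK, none of the 7 genes tested in SKBR3 and of the 6 tested in MDA-MB-453 passed the threshold in edgeR or DESeq2, with 1 and 0 at an unadjusted p under 0.05. NAPRT fell in SKBR3 once TWEAK replicate 2 was left out (log2 fold change -0.24, edgeR adjusted p = 0.00368, against -0.12 with all libraries).

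Of 6 other bHLH-PAS partners of ARNT, HIF1A, EPAS1 and NPAS1 were tested, and none passed with TWEAK in edgeR or DESeq2, with 0 in SKBR3 and 1 in MDA-MB-453 at an unadjusted p under 0.05. HIF1A, the oxygen-regulated subunit of HIF1, was higher in untreated SKBR3 than in untreated MDA-MB-453 by 1.92 (SE 0.090, edgeR adjusted p = 1.29e-12) and EPAS1, its counterpart in HIF2, by 1.17 (SE 0.076, edgeR adjusted p = 1.39e-10). Without TWEAK replicate 2, EPAS1 rose in SKBR3 (log2 fold change 0.20, edgeR adjusted p = 0.00175, against 0.10 with all libraries). It fell in MDA-MB-453 (-0.18, edgeR adjusted p = 0.00362, against -0.12), and HIF1A rose in SKBR3 (0.14, edgeR adjusted p = 0.0708, against 0.02).

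Among markers of other cell types, CDH5, an endothelial cadherin, rose in SKBR3 from 1.74 ± 0.166 to 4.21 ± 0.766 CPM (log2 fold change 1.26, SE 0.175, edgeR adjusted p = 0.000855). VWF, the other endothelial marker above 3 counts there, was at 2.86 ± 0.505 and 2.68 ± 0.10 CPM, with a log2 fold change of -0.10 (SE 0.164, edgeR adjusted p = 0.783). The summed level of the 4 endothelial markers was 3.91 to 5.17 CPM in untreated and 6.32 to 7.65 CPM in TWEAK-treated SKBR3, with PECAM1 and KDR at 3 counts or fewer in each library, and its part in the results was not tested. The 5 fibroblast markers summed to 17.5 to 21.2 CPM in SKBR3 and 107 to 123 CPM in MDA-MB-453, nearly all of it COL1A1. COL1A2 had 2, 1 and 3 counts in untreated and 10, 8 and 12 in TWEAK-treated SKBR3, without overlap, and was too low to be tested.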
